A study of Mus musculus with 8 samples.

Results

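The transcripts of 10 enteroendocrine genes were followed in crypts of Mex3a knock-out mice: the granins Chga and Chgb and the hormone precursors Sct, Cck, Gip, Sst, Tac1, Gcg, Pyy and Nts. The genes were taken by symbol from the 55114 genes of the deposited table, and all 10 of them passed the filter on low counts, as did 16109 genes in all. Intestinal crypts had been released with EDTA from 4 constitutive Mex3a knock-out mice (KO), in which exon 1 and part of exon 2 of Mex3a are deleted in every tissue, and from 4 littermate controls (WT). All 8 mice were C57BL/6 and 8 weeks old, and RNA of whole crypt preparations was sequenced. Which segment of the intestine was taken is not given in the sources used here. The comparison asks whether loss of Mex3a, an RNA-binding protein of intestinal stem cells (ISCs), altered the hormone transcripts of the crypt, and whether hormones of the proximal and of the distal gut moved alike.

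Enteroendocrine cells are scattered hormone-secreting cells of the intestinal epithelium. They arise from crypt progenitors that switch on the transcription factor Neurog3, and they store peptide hormones with granins in dense-core granules, from which nutrients trigger release. The hormone a cell makes depends on its position along the gut and on its maturity. Secretin (Sct), cholecystokinin (Cck) and gastric inhibitory polypeptide (Gip) dominate in the duodenum and jejunum, the glucagon gene (Gcg, the source of GLP-1), peptide YY (Pyy) and neurotensin (Nts) prevail in the ileum and, for Gcg and Pyy, the colon, and somatostatin (Sst) and substance P (Tac1) are made along the whole tract.

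The promoters of these genes differ in the short elements they carry, and those of 4 members are shown because they hold an exact match close to the RefSeq start. RefSeq promoter windows of GRCm38.p6 were found for all 10 members and were searched over the 250 bases upstream of the start, on both strands. The cyclic AMP response element (CRE, TGACGTCA), for which the somatostatin gene is the textbook example, was found in Sst and Chgb, in 3.03% of 10889 tested genes with a window, and in 1.55% of all 32851 windows. A TATA sequence (TATAAA) was found in Sct and Gcg, in 8.55% of these tested genes and in 12.4% of all windows, and an E-box (CANNTG), the kind of site bound by Neurog3 and Neurod1, in all 10 members, in 62.8% of the tested genes and in 66.2% of all windows. The stretches below, printed 5′ to 3′ on the strand of the gene, hold the element in capitals with 10 bases on either side.
Sst, chr16:23890875-23890902, minus strand, element starting 48 bases upstream: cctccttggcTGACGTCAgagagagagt
Chgb, chr2:132781560-132781587, plus strand, element starting 72 bases upstream: ggctgctccgTGACGTCAgggctgagcg
Sct, chr7:141279146-141279171, minus strand, element starting 28 bases upstream: tcccggcagcTATAAAgcggtggcgc
Gcg, chr2:62483662-62483687, minus strand, element starting 24 bases upstream: ctggagagcaTATAAAagcacagcac
The starts are those of RefSeq. GENCODE M21 sets the starts of Sst and Chgb farther upstream, so that their stretches lie inside the gene coordinates given for them here, while those of Sct and Gcg lie outside. A match describes the letters of the window and is not a measured binding site.

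The values rest on 20324184 to 24726221 counts in each WT mouse and 23489180 to 30654105 in each KO mouse. Levels of 1 gene are given as CPM, counts scaled by the size of the library. Mex3a itself was 13.3 ± 2.10 CPM in WT and 0.613 ± 0.417 CPM in KO (SD, n = 4 each), without overlap of the genotypes. In both genotypes, replicates 1 and 2 carried Y-linked transcripts and replicates 3 and 4 carried Xist. Of the 10 marker genes of enteroendocrine cells, among them Chga, Chgb, Neurog3 and Rfx6, all were detected, and their summed level was 232 to 402 CPM in WT and 298 to 327 CPM in KO. The 8 islet and pancreas markers summed to 6.88 to 13.0 CPM in WT and 4.69 to 7.75 CPM in KO, nearly all of it Cela1 (6.31 to 12.2 and 4.46 to 6.92 CPM), with the islet hormones Ins1 and Ppy at 0 counts in all 8 mice and Ins2 at 1 count in 1 mouse.

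None of the 10 hormone and granin transcripts differed between KO and WT after adjustment over all genes tested: 0 of 10 had an adjusted p under 0.05 in edgeR's quasi-likelihood test, against 0.00621% of all genes (Mex3a alone). Their adjusted p lay between 0.592 and 0.987. At an unadjusted p under 0.05, 1 of 10 passed (Sct, higher in KO), against 8.38% of all genes in either direction (5.33% higher, 3.05% lower), so that the members' share was close to the background. This count was 0 without KO replicate 3 or KO replicate 4 and 2 without WT replicate 1, KO replicate 1 or KO replicate 2, and Sct was not always among the genes counted. The share of all genes moved too, to 5.16% and 6.16% without KO replicates 3 and 4, and to 6.72%, 13.0% and 7.73% without WT replicate 1, KO replicate 1 and KO replicate 2. With the replicate number as a block, 3 of 10 passed (Gip and Sst lower, Nts higher, and no longer Sct), against 11.3% of all genes (7.14% higher in KO). The genotypes overlapped in all 10 members, whereas 4.05% of the genes tested showed no overlap. The log2 fold change of KO over WT was above 0 in 4 members and below 0 in 6, with a median of -0.084, beside a median of -0.016 over all genes, of which 46.1% were above 0. These are bulk crypt preparations, in which fewer cells of a type and less RNA per cell cannot be told apart. The plot of log2 fold changes shows both fits for each member.

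**Figure D1:**
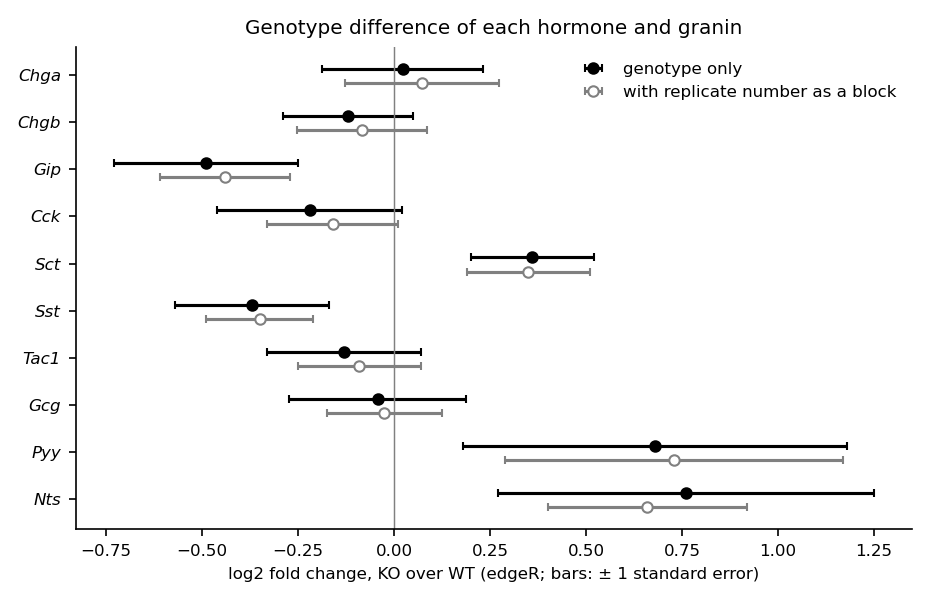
Log2 fold change of KO over WT for each hormone and granin on the x axis, with 1 standard error on either side, from the fit with genotype only (filled) and with a block for the replicate number (open). Gip and Sst lie left of 0 and Sct, Pyy and Nts right of 0 in both fits, and the bars of Pyy and Nts are the widest with genotype only, with standard errors of 0.50 and 0.49.

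The granins, acidic proteins of the secretory granule that most enteroendocrine cells share, differed in mean level by less than the spread between mice. Chga (chromosome 12, 102554969 to 102565028, plus strand, GRCm38) encodes chromogranin A and was 55.5, 107, 59.8 and 97.0 CPM in WT replicates 1 to 4, and 74.9, 77.4, 95.5 and 76.9 CPM in KO replicates 1 to 4. The 4 KO values lay inside the WT range, above the lower pair of WT mice and below the upper pair. The means were 79.9 ± 26.0 CPM in WT and 81.2 ± 9.62 CPM in KO (SD, n = 4 each), and the log2 fold change was 0.023 ± 0.21 (SE) (two-sided exact permutation test on CPM, p = 0.971). Chgb (chromosome 2, 132781278 to 132795079, plus strand) encodes chromogranin B, was the most abundant of the members and followed the same pattern. Its levels were 136, 241, 167 and 243 CPM in WT, and 191, 173, 181 and 177 CPM in KO. The KO mice kept within a narrow band between the lower and the upper WT pair, with means of 197 ± 54.0 CPM in WT and 180 ± 7.57 CPM in KO (SD, n = 4 each). For Chgb the log2 fold change was -0.12 ± 0.17 (SE) (two-sided exact permutation test on CPM, p = 0.514). It was -0.27 without WT replicate 1 (unadjusted p = 0.0759 in edgeR) and -0.0054 without WT replicate 4.

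**Figure D2:**
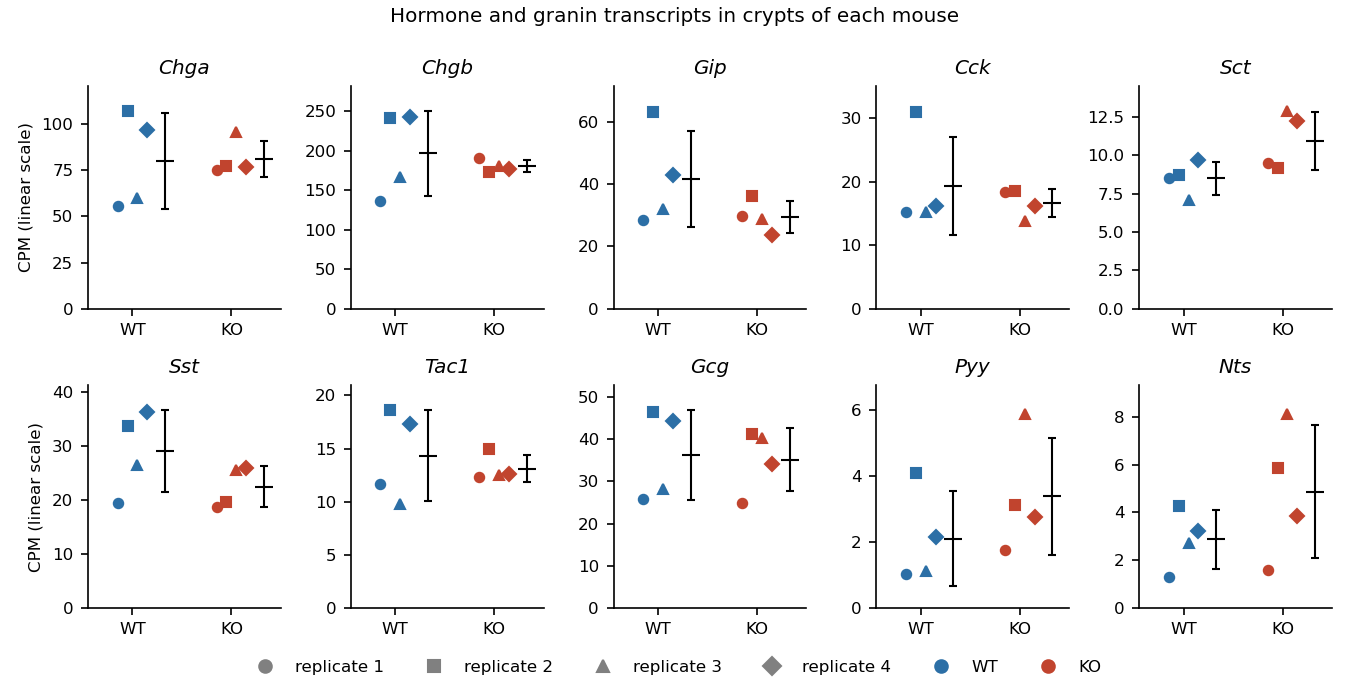
Level of each hormone and granin in every mouse, in CPM on the y axis, with WT in blue and KO in red, the marker shape giving the replicate number, and the mean with 1 SD beside the 4 mice. In all 10 panels WT replicates 2 and 4 lie above WT replicates 1 and 3, and the genotypes overlap in each panel.

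Among the proximal hormones, Sct passed the unadjusted threshold with a higher mean in KO, Gip came near it with a lower mean, and Cck overlapped widely. Gip (chromosome 11, 96024545 to 96030831, plus strand) encodes the incretin of K cells, which augments insulin release after a meal. It was measured at 28.6, 63.1, 32.0 and 43.1 CPM in WT, and at 29.8, 36.2, 28.7 and 23.7 CPM in KO. WT replicates 2 and 4 lay above every KO mouse, KO replicate 4 lay below every WT mouse, and in 3 of the 4 same-numbered pairs the KO mouse was the lower one. The mean was 41.7 ± 15.6 CPM in WT and 29.6 ± 5.15 CPM in KO (SD, n = 4 each). Gip had a log2 fold change of -0.49 ± 0.24 (SE) (unadjusted p = 0.0682, adjusted p = 0.618 in edgeR), and the exact two-sided permutation test on CPM gave p = 0.200. With the replicate number as a block it was -0.44, with unadjusted p = 0.0339 and adjusted p = 0.400 in edgeR. The value leaned on WT replicate 2, without which the log2 fold change of Gip was -0.22 (unadjusted p = 0.243).

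Sct (chromosome 7, 141278330 to 141279133, minus strand) encodes secretin, which drives bicarbonate secretion by the pancreas and is also made by many enteroendocrine cells of other hormone types as they mature. Its levels were 8.50, 8.74, 7.08 and 9.69 CPM in WT, and 9.49, 9.19, 12.9 and 12.2 CPM in KO, from 145 to 366 counts per mouse. KO replicates 3 and 4 lay above every WT mouse, KO replicates 1 and 2 lay within the WT range, and in each same-numbered pair the KO mouse was the higher one. The mean went from 8.50 ± 1.08 to 10.9 ± 1.87 CPM (SD, n = 4 each). This is a log2 fold change of 0.36 ± 0.16 (SE) (unadjusted p = 0.0492, adjusted p = 0.592 in edgeR). The exact two-sided permutation test on CPM gave p = 0.0857 for Sct, and blocking by replicate number gave 0.35 with unadjusted p = 0.0679. The unadjusted p of Sct stayed under 0.05 in 10 of the 16 alternative fits, and was 0.140 without KO replicate 3, 0.123 without KO replicate 4, 0.117 without WT replicate 3, 0.0814 without WT replicate 1 and 0.0713 without WT replicate 2. The log2 difference was 0.57 in the replicates with Xist and 0.11 in those with Y-linked transcripts, and the test of that difference over all genes gave 0.131 as the smallest unadjusted p of any member.

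Cck (chromosome 9, 121489824 to 121495694, minus strand) encodes cholecystokinin, the hormone of I cells that contracts the gallbladder and slows gastric emptying. WT levels were 15.2, 30.9, 15.2 and 16.1 CPM, and KO levels were 18.3, 18.5, 13.8 and 16.1 CPM. WT replicate 2 stood far above the other 7 mice, which were spread between 13.8 and 18.5 CPM. The means were 19.4 ± 7.72 and 16.7 ± 2.20 CPM (SD, n = 4 each), with a log2 fold change of -0.22 ± 0.24 (SE) (two-sided exact permutation test on CPM, p = 0.800). Without WT replicate 2 it was 0.10.

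Of the 2 members made along the whole tract, Sst was lower in every KO mouse than in the WT mouse of the same number, and Tac1 overlapped widely. Sst (chromosome 16, 23889573 to 23890958, minus strand) encodes somatostatin, which D cells release to restrain the secretion of other hormones. Its levels were 19.5, 33.8, 26.6 and 36.4 CPM in WT, and 18.8, 19.6, 25.7 and 25.9 CPM in KO. WT replicates 2, 3 and 4 lay above every KO mouse, and WT replicate 1 lay among the lowest KO values. By replicate number the log2 difference was -0.054, -0.77, -0.047 and -0.48, and no source says that the numbers pair the mice. Mean Sst was 29.1 ± 7.60 CPM in WT and 22.5 ± 3.83 CPM in KO (SD, n = 4 each). The log2 fold change of Sst was -0.37 ± 0.20 (SE) (unadjusted p = 0.0964, adjusted p = 0.650 in edgeR), and the exact two-sided permutation test on CPM gave p = 0.143. The block by replicate number brought the unadjusted p of Sst to 0.0470 (log2 fold change -0.35, adjusted p = 0.438). Without WT replicate 4 the log2 fold change of Sst was -0.24 (unadjusted p = 0.261), and without WT replicate 1 it was -0.52 (unadjusted p = 0.0118). D cells are also frequent in the stomach, and the summed level of 6 stomach markers, among them Gkn1 and Muc5ac, was 14.9, 121, 68.8 and 654 CPM in WT and 164, 17.1, 3.03 and 138 CPM in KO. WT replicate 4 was highest in both, while KO replicate 1 had the next highest stomach markers (164 CPM) and the lowest Sst (18.8 CPM). The part of gastric RNA in the level of Sst was not tested.

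Tac1 (chromosome 6, 7554879 to 7565834, plus strand) encodes the precursor of substance P, which in the epithelium marks enterochromaffin cells. It was 11.7, 18.6, 9.77 and 17.3 CPM in WT, and 12.3, 15.0, 12.5 and 12.6 CPM in KO. As for the granins, the KO values fell between the lower and the upper WT pair. The means were 14.3 ± 4.29 and 13.1 ± 1.28 CPM (SD, n = 4 each), and the log2 fold change of -0.13 was smaller than its standard error of 0.20 (two-sided exact permutation test on CPM, p = 0.629). Tac1 is also a transcript of enteric neurons, of whose 12 marker genes with those of glia the summed level was 6.12 to 8.27 CPM in WT and 7.05 to 9.41 CPM in KO.

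The distal hormones Pyy and Nts were the lowest members in WT crypts and had the largest positive log2 fold changes of the 10, with the largest standard errors, whereas the log2 fold change of Gcg was near 0. Gcg (chromosome 2, 62474530 to 62483650, minus strand) encodes proglucagon, which L cells cut into GLP-1 and GLP-2. It was 25.9, 46.5, 28.1 and 44.3 CPM in WT, and 24.9, 41.2, 40.4 and 34.1 CPM in KO. The means of Gcg were 36.2 ± 10.7 and 35.1 ± 7.56 CPM (SD, n = 4 each), and its log2 fold change was -0.043 ± 0.23 (SE) (two-sided exact permutation test on CPM, p = 0.857). The ranges covered each other almost fully.

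Pyy (chromosome 11, 102106676 to 102107832, minus strand) encodes peptide YY, the partner of GLP-1 in L cells, which lowers appetite and slows transit. Its levels were 1.02, 4.11, 1.12 and 2.17 CPM in WT, from 22 to 88 counts, and 1.76, 3.14, 5.89 and 2.76 CPM in KO, from 42 to 136 counts. WT replicate 2 lay above 3 of the 4 KO mice, and KO replicate 3 was the highest mouse. Pyy averaged 2.11 ± 1.44 CPM in WT and 3.39 ± 1.76 CPM in KO (SD, n = 4 each). The log2 fold change was 0.68 ± 0.50 (SE) (unadjusted p = 0.206, adjusted p = 0.752 in edgeR), and the exact two-sided permutation test on CPM gave p = 0.343. It ranged from 0.28 without KO replicate 3 to 1.22 without WT replicate 2, where the unadjusted p was 0.0269.

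Nts (chromosome 10, 102481756 to 102490486, minus strand) encodes neurotensin, a hormone of N cells of the ileum that promotes fat absorption. WT mice had 1.29, 4.25, 2.73 and 3.22 CPM, from 28 to 91 counts, and KO mice 1.60, 5.86, 8.14 and 3.86 CPM, from 38 to 188 counts. In each same-numbered pair the KO mouse was the higher one, and KO replicates 2 and 3 lay above every WT mouse. The mean was 2.87 ± 1.23 CPM in WT and 4.86 ± 2.79 CPM in KO (SD, n = 4 each). Nts had a log2 fold change of 0.76 ± 0.49 (SE) (unadjusted p = 0.154, adjusted p = 0.709 in edgeR), and the exact two-sided permutation test on CPM gave p = 0.286. Blocking by replicate number gave 0.66, with unadjusted p = 0.0419 and adjusted p = 0.423 in edgeR. Leaving out KO replicate 3 brought the log2 fold change of Nts down to 0.39 (unadjusted p = 0.438), and leaving out KO replicate 1 brought it up to 1.04 (unadjusted p = 0.0282).

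To order the members among themselves, levels were read per length, as the deposited FPKM (fragment counts scaled by gene length and library size). In WT crypts Chgb was highest at 71.2 ± 19.6 FPKM, followed by Gip at 60.2 ± 22.5, Sst at 40.0 ± 10.5, Chga at 28.8 ± 9.39 and Gcg at 24.0 ± 7.12 FPKM (SD, n = 4 each). Cck (14.7 ± 5.88) and Sct (13.1 ± 1.63) came next, and Tac1 (4.19 ± 1.25), Pyy (3.31 ± 2.26) and Nts (2.29 ± 0.981 FPKM) closed the order. Of neighbours in the WT order, only Sct and Tac1 had ranges that did not overlap. The first 5 members stood in the same order in KO, with Chgb at 65.7 ± 2.84, Gip at 43.0 ± 7.50, Sst at 31.1 ± 5.24, Chga at 29.4 ± 3.43 and Gcg at 23.5 ± 5.02 FPKM. Below them Sct (16.9 ± 2.86) passed Cck (12.7 ± 1.70), and Pyy (5.35 ± 2.78) and Nts (3.88 ± 2.23) came before Tac1 (3.85 ± 0.376 FPKM). The neighbours Chgb and Gip, Sct and Cck, and Cck and Pyy did not overlap in KO. Transcripts of proximal and of distal hormones were thus present in the same preparations, and the mean FPKM of Gip exceeded that of Gcg in both genotypes.

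The spread of the members between WT mice was wide. Their median coefficient of variation (the SD as a share of the mean CPM) was 31.2% in WT and 17.1% in KO, beside 14.4% and 14.6% over all genes tested. It was lower in KO than in WT for 8 of the 10 members, all but Sct and Nts, against 50.3% of all genes. For Chgb it was 27.5% in WT and 4.20% in KO. The spread in WT had 1 form in all 10 genes: replicates 2 and 4 lay above replicates 1 and 3, an order held by 14.6% of all genes and by 11 of the 21 tested transcription factors of the lineage. The summed markers of tuft cells (49.4, 114, 59.0 and 87.3 CPM), ileum and stomach held this order too. Those of enterocytes, goblet cells, Paneth cells and stem cells did not. The summed level of the members was 303, 558, 349 and 513 CPM in WT and 382, 399, 425 and 385 CPM in KO. No test of the spread was made, and replicate 2 belongs to the mice with Y-linked transcripts and replicate 4 to those with Xist.

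Because the WT mice differed in the level of all members together, each hormone was also read relative to the granins of the same mouse, as its log2 CPM minus the mean log2 CPM of Chga and Chgb. This scale was chosen after the levels in single mice had been seen and carries no test. Gcg followed the granins closely in WT, at -1.72, -1.78, -1.81 and -1.78, and lay at -2.24, -1.48, -1.69 and -1.76 in KO. Gip was -1.59, -1.34, -1.63 and -1.82 in WT and -1.99, -1.66, -2.18 and -2.28 in KO, and was lower in KO in each of the 4 same-numbered pairs. Sst lay at -2.12, -2.23, -1.89 and -2.06 in WT and at -2.64, -2.53, -2.33 and -2.15 in KO, again lower in each pair. The differences of the means (KO minus WT) were -0.43 for Gip and -0.34 for Sst, and they kept their sign whichever mouse was left out, between -0.55 and -0.35 for Gip and between -0.42 and -0.26 for Sst. Pyy was -5.85, -5.13, -5.95 and -5.85 in WT and -5.73, -5.00, -4.37 and -5.17 in KO, higher in KO in each pair, with a difference of 0.63 (0.40 without KO replicate 3). For Nts the difference was 0.58 (3 of 4 pairs higher), with 0.33 without KO replicate 3 and 0.96 without KO replicate 1, and for Sct it was 0.34 (3 of 4 pairs), with 0.22 without WT replicate 2, while Cck (-0.15), Tac1 (-0.080) and Gcg (-0.019) differed by less. Leaving out 1 mouse gave -0.33 to -0.024 for Cck, -0.16 to -0.00015 for Tac1 and -0.12 to 0.13 for Gcg. The genotypes overlapped on this scale for all 8 hormones, while 1.23% of all genes tested showed no overlap.

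**Figure D3:**
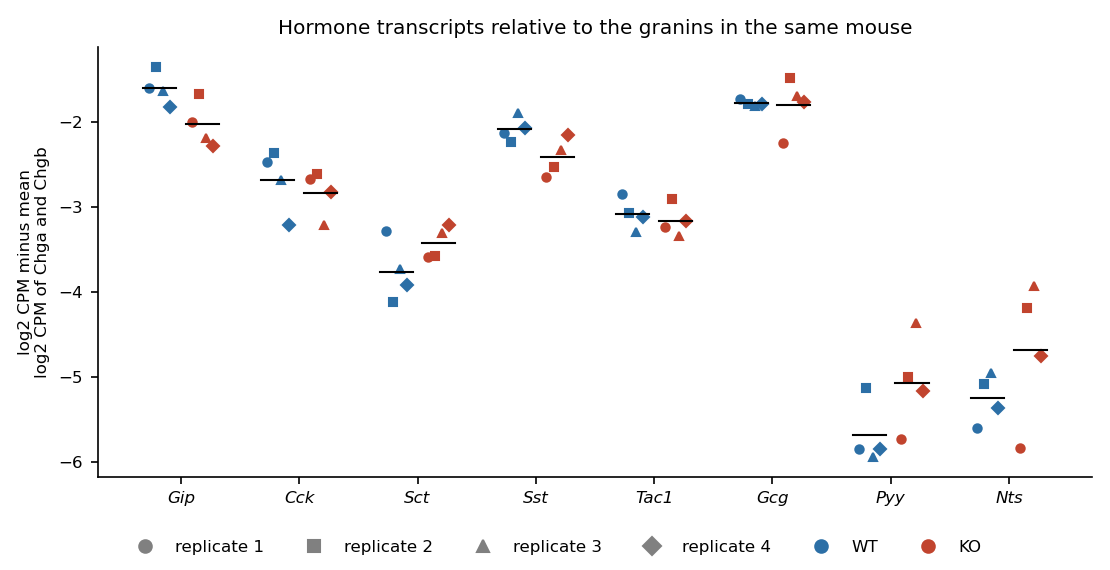
Log2 CPM of each hormone minus the mean log2 CPM of Chga and Chgb in the same mouse on the y axis, with WT in blue, KO in red, the marker shape giving the replicate number and the bar the mean of 4 mice. The WT values of Gcg lie within -1.81 to -1.72, Gip and Sst lie lower in KO by 0.43 and 0.34 on average, and Pyy lies higher by 0.63.

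The distal hormones Gcg, Pyy and Nts were then set against the proximal hormones Gip, Cck and Sct as the difference of their mean log2 CPM in each mouse. This difference was -1.95, -1.39, -1.56 and -1.35 in WT, and -1.85, -0.93, -0.44 and -1.12 in KO. The mean log2 CPM of the proximal hormones exceeded that of the distal ones in all 8 mice. The gap was smaller in KO in each same-numbered pair, and KO replicate 1 lay within the WT range. Taken singly, the distal Gcg lay above Cck and Sct in all 8 mice, and above Gip in WT replicate 4 and KO replicates 2, 3 and 4. The mean of the difference was -1.56 ± 0.27 in WT and -1.09 ± 0.59 in KO (SD, n = 4 each), a shift of 0.47 toward the distal hormones that is smaller than the SD of the KO mice. Of the distal hormones, Pyy and Nts had positive log2 fold changes (0.68 and 0.76, from 22 to 188 counts per mouse), and Gcg did not (-0.043). No p is given for this score, since its members were chosen with results known. KO replicates 1 and 3 had the most weight: the shift was 0.73 without KO replicate 1 and 0.26 without KO replicate 3. It was 0.27 among replicates with Y-linked transcripts and 0.68 among those with Xist. Sct moved against the other proximal hormones, and without it the shift was 0.69, while without Nts it was 0.38.

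Markers of gut region are given beside the hormones. The summed level of 7 ileal genes, among them the bile acid carriers Fabp6, Slc10a2 and Slc51a, was 221, 499, 345 and 541 CPM in WT and 578, 884, 910 and 1079 CPM in KO. Every KO mouse lay above every WT mouse, and each of the 7 genes had a positive log2 fold change with an unadjusted p under 0.05, from 0.40 for Nr1h4 to 2.06 for Fgf15, where 5.33% of all genes tested were higher at that threshold. Their adjusted p was 0.518 to 0.567 in edgeR. With DESeq2, which called 0.578% of all genes, it was 0.0401 for Slc51a and 0.144 to 0.501 for the others. Slc51a, Slc51b and Osr2 kept the unadjusted p under 0.05 in all 16 alternatives, Fabp6 and Slc10a2 in 13, Nr1h4 in 10 and Fgf15, which was 0.98 without KO replicate 4 (unadjusted p = 0.187), in 9. The summed level of Gcg, Pyy and Nts, most of it Gcg, overlapped between the genotypes, at 28.2, 54.8, 31.9 and 49.7 CPM in WT and 28.2, 50.2, 54.4 and 40.7 CPM in KO. Pyy and Nts, with log2 fold changes of 0.68 and 0.76, overlapped too. Onecut2, a transcription factor of the proximal small intestine, was 91.9 ± 7.97 CPM in WT and 58.0 ± 14.5 CPM in KO (SD, n = 4 each), with all KO mice under all WT mice. Over all genes tested, 2.17% had all KO mice above and 1.87% all KO mice below the WT mice. The log2 fold change of Onecut2 was -0.66 ± 0.17 (SE) (unadjusted p = 0.00295, adjusted p = 0.518 in edgeR). With DESeq2 its adjusted p was 0.0425. The duodenal factors Gata4 (-0.26, unadjusted p = 0.146) and Pdx1 (-0.62, unadjusted p = 0.221) did not pass the unadjusted threshold, though Gata4 did with the replicate block (-0.25, unadjusted p = 0.0330, adjusted p = 0.398 in edgeR). Leaving out 1 mouse gave -1.02 to -0.34 for Pdx1 and -0.37 to -0.11 for Gata4, which passed without WT replicate 2 (unadjusted p = 0.0391 in edgeR). Over the whole list of 9 proximal genes, 1 was lower (Onecut2) and 1 higher (Adh6a) at that threshold, against 3.05% and 5.33% of all genes. Adh6a, at 0.36 (unadjusted p = 0.0338, adjusted p = 0.562 in edgeR), passed in 10 of the 16 alternatives. It did not pass without KO replicate 3 (0.0605) or 4 (0.0944, log2 fold change 0.21) or WT replicate 1 (0.0735), 2 (0.0646) or 4 (0.0733). For the 9 genes the summed level was 455 to 868 CPM in WT and 477 to 1174 CPM in KO. Of 9 colon markers, Hoxb13, Hoxd10 and Prdx6b were at 0 counts, and the sum was 200 to 298 CPM in WT and 250 to 339 CPM in KO. The 7 enterocyte markers all had positive log2 fold changes too (median 0.88). Their sum was 1522 to 3404 CPM in WT and 2094 to 7513 CPM in KO. The parts of the segment sampled and of enterocyte content in the levels of the ileal genes, Pyy, Nts and Gip were not tested.

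**Figure D4:**
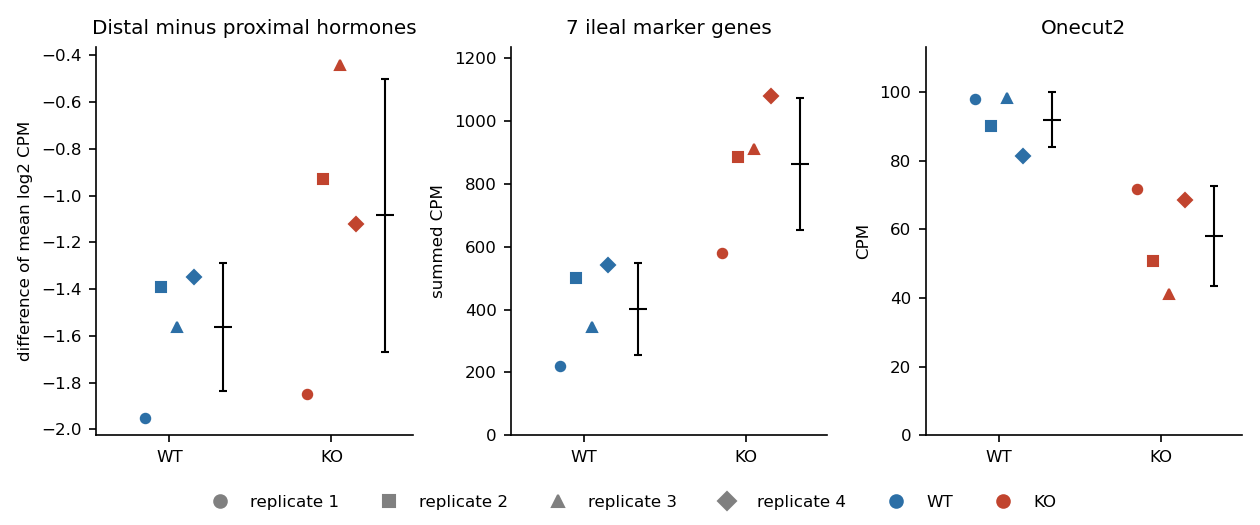
Distal minus proximal hormone level (difference of mean log2 CPM), summed CPM of 7 ileal marker genes and CPM of Onecut2 on the y axes, for each WT (blue) and KO (red) mouse, with the mean and 1 SD. KO replicate 3 has the highest hormone difference (-0.44) and KO replicate 1 (-1.85) lies beside WT, whereas the genotypes do not overlap for the ileal markers or for Onecut2.

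Over the 8 mice, 43 of the 45 pairs of members had a positive Pearson correlation of log2 CPM, with a median r of 0.568. Nts and Pyy were the closest pair (r = 0.879, exact permutation p = 0.00558, and Spearman's rho = 0.952, exact permutation p = 0.00114). Adjusted over the 45 pairs these were 0.115 and 0.0513, and r was 0.690 without the 2 mice farthest from the median level of Nts. Chga and Chgb (r = 0.870, rho = 0.810) and Chga and Gcg (r = 0.847, rho = 0.905) followed, with exact permutation p of 0.00610 and 0.0109 for r and of 0.0218 and 0.00456 for rho. Without the 2 farthest mice their r was 0.673 and 0.737. Within WT the r of Chga with Chgb was 0.969 and within KO it was -0.0541, from 4 mice each, so that this relation rested on the WT mice. Cck and Gip had r = 0.812 (exact permutation p = 0.0347, rho = 0.619 with an exact permutation p of 0.115), which fell to 0.187 without the 2 farthest mice. Sct stood apart from the other proximal hormones, with r = -0.371 against Gip (rho = -0.286) and r = -0.261 against Cck (rho = -0.143), exact permutation p = 0.362 and 0.50 for r and 0.501 and 0.752 for rho. No pair had an adjusted p under 0.05. The members of 1 mouse share a library, a crypt preparation and its content of enteroendocrine cells.

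Among 12872 genes with a mean log2 CPM of at least 1, the patterns most like Chga over the 8 mice were those of Zfpl1 (r = 0.989), Gm5159 (r = 0.974) and Myt1 (r = 0.969). Chgb came 23rd and Gcg 32nd in that order. For Gip they were Tpst1 (r = 0.989), Cnpy3 (r = 0.963) and Ino80e (r = 0.959), and for Nts 2210016F16Rik (r = 0.985), Barx2 (r = 0.965) and Gm7694 (r = 0.961), with Pyy in place 101. With 8 points and 12872 genes, such values describe these mice only.

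The other genes of the enteroendocrine system were read from lists of regulators, processing enzymes, further peptides, receptors and sensors. Of 21 tested transcription factors of the lineage, 18 had a negative log2 fold change, where 53.9% of all genes did, with a median of -0.16 against -0.016. The 6 stem cell, 6 Paneth cell and 5 tuft cell markers were also all negative. The 7 enterocyte and 6 goblet cell markers were all positive. At an unadjusted p under 0.05, 1 of the 21 was lower, against 3.05% of all genes, a share near the background. This was Pax4, a homeobox factor of early endocrine progenitors, at 1.24 ± 0.480 CPM in WT and 0.698 ± 0.238 CPM in KO (SD, n = 4 each), with a log2 fold change of -0.84 ± 0.37 (SE) (unadjusted p = 0.0484, adjusted p = 0.589 in edgeR). Pax4 passed in 5 of the 16 alternatives and not with the replicate block (unadjusted p = 0.0854), nor without WT replicate 1 (0.0524), 2 (0.137) or 4 (0.119) or KO replicate 2 (0.121), 3 (0.0852) or 4 (0.0935), while Sox4, a factor of early progenitors, did (-0.24, unadjusted p = 0.0105, adjusted p = 0.301). Neurog3, which starts the lineage, was at 5.37 ± 1.29 CPM in WT and 5.29 ± 0.659 CPM in KO (SD, n = 4 each). Neurod1 (-0.21) and Rfx6 (-0.26), which act in maturing cells, had small negative log2 fold changes with unadjusted p of 0.308 and 0.239. Leaving out 1 mouse gave -0.31 to -0.10 for Neurod1 and -0.35 to -0.15 for Rfx6. Of the 14 tested genes for prohormone processing and secretion, none passed that threshold in the fit on genotype. Qpct, which forms the pyroglutamate end of neurotensin, came nearest with -1.64 (unadjusted p = 0.0583) at 1.01 ± 1.06 CPM in WT and 0.322 ± 0.250 CPM in KO (SD, n = 4 each), and the next smallest p was that of Cplx2, a regulator of vesicle fusion (-0.30, unadjusted p = 0.211). Cplx2 was -0.45 without KO replicate 3 and -0.16 without WT replicate 4. Qpct passed in 6 of the 16 alternatives, among them the replicate block (-1.46, unadjusted p = 0.0107, adjusted p = 0.301 in edgeR), and was lower in KO in all 4 pairs. WT replicate 1 carried most of its value, which was -0.60 without that mouse (unadjusted p = 0.358) and -2.24 without KO replicate 1 (unadjusted p = 0.0280). Kcnj11, a subunit of the ATP-sensitive potassium channel, passed in 1 alternative (without KO replicate 2).

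Among 8 further peptide and granin genes tested, Vgf, a granin-like precursor, was higher in each KO mouse than in the WT mouse of the same number, at 2.43 ± 0.625 and 3.87 ± 1.30 CPM (SD, n = 4 each). Its log2 fold change was 0.67 ± 0.28 (SE) (unadjusted p = 0.0396, adjusted p = 0.576 in edgeR), and 0.65 with the replicate block (unadjusted p = 0.0527). The unadjusted p of Vgf was also above 0.05 without WT replicate 1 (0.0933), WT replicate 4 (0.0998), KO replicate 1 (0.131, log2 fold change 0.41) or KO replicate 3 (0.0512). Gast, the gastrin gene, was at 3.63 ± 4.34 CPM in WT and 1.18 ± 1.36 CPM in KO (SD, n = 4 each), beside the uneven stomach markers given for Sst, and its log2 fold change of -1.63 (unadjusted p = 0.142) was -0.32 without WT replicate 4 and -2.64 without KO replicate 1 (unadjusted p = 0.0421). The 6 genes of serotonin synthesis, storage and uptake did not pass the unadjusted threshold in the fit on genotype, with the smallest p for the transporter Slc6a4 (0.34, unadjusted p = 0.217) and for Maob (0.32, unadjusted p = 0.489). The value of Maob was -0.10 without KO replicate 3 and 0.59 without KO replicate 2. With the replicate block Slc6a4 passed (0.36, unadjusted p = 0.00902, adjusted p = 0.295 in edgeR), and it was higher in KO in all 4 pairs. In the fit on genotype it was 0.15 without WT replicate 2 or without KO replicate 3. Only 5 of the 21 receptors for these hormones passed the filter on low counts, and 6 (Cckbr, Ntsr1, Npy4r, Npy5r, Tacr1 and Tacr3) were at 0 counts in all 8 mice. Of those tested, the GIP receptor Gipr (-0.54, unadjusted p = 0.116) and the somatostatin receptor Sstr3 (-0.57, unadjusted p = 0.274) had the smallest p. Gipr passed with the replicate block (-0.55, unadjusted p = 0.0233, adjusted p = 0.362 in edgeR), lower in KO in all 4 pairs. Without the block, Gipr was -0.34 when KO replicate 2 was left out (unadjusted p = 0.253) and -0.73 when WT replicate 2 was (unadjusted p = 0.0330). Sstr3 was -0.29 without KO replicate 2 and -1.02 without KO replicate 4, and passed in none of the 16 alternatives. The nutrient sensors nearest the threshold did not pass it in the fit on genotype, Slc5a1, the glucose carrier through which sugar releases incretins, at 0.82 (unadjusted p = 0.0549) and the estrogen receptor Gper1 at -0.51 (unadjusted p = 0.0552). Slc5a1 passed in 6 and Gper1 in 7 of the 16 alternatives, with the replicate block at 0.70 (unadjusted p = 0.0420) and -0.53 (unadjusted p = 0.0424), with adjusted p of 0.423 and 0.424 in edgeR. Slc5a1 is also a carrier of enterocytes and was 0.41 without KO replicate 3 (unadjusted p = 0.211), the mouse with the highest summed enterocyte markers, and the part of enterocyte content in its level was not tested.

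The peptidases that cut the released hormones had higher means in KO: all 5 had a positive log2 fold change, and 3 an unadjusted p under 0.05, against 5.33% of all genes higher at that threshold. Dpp4, which inactivates GLP-1 and GIP, went from 130 ± 50.6 to 235 ± 122 CPM (log2 fold change 0.86 ± 0.37, SE). Anpep went from 672 ± 441 to 1777 ± 1035 CPM (1.40 ± 0.50), and Enpep from 280 ± 114 to 553 ± 283 CPM (0.98 ± 0.40; SD of the levels, n = 4 each). Their adjusted p was 0.588, 0.533 and 0.563 in edgeR. Dpp4 had an unadjusted p under 0.05 in 7, Enpep in 9 and Anpep in 13 of the 16 alternatives. Without KO replicate 3 their log2 fold changes were 0.47, 0.65 and 0.99, with unadjusted p of 0.166, 0.115 and 0.0667, and Dpp4 and Enpep were also above the threshold without KO replicate 4 (0.0790 and 0.080). Leaving out WT replicate 1 or 2 lost all 3 (0.0528 to 0.112), and leaving out WT replicate 3 lost Dpp4 (0.0758) and Enpep (0.0663) and left Anpep just under the threshold. All 3 are brush border enzymes of enterocytes, and the summed level of 7 enterocyte markers, among them Apoa1 and Vil1, was 1522 to 3404 CPM in WT and 2094 to 7513 CPM in KO, highest in KO replicate 3. The part of enterocyte content in the levels of these peptidases was not tested.

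**Figure D5:**
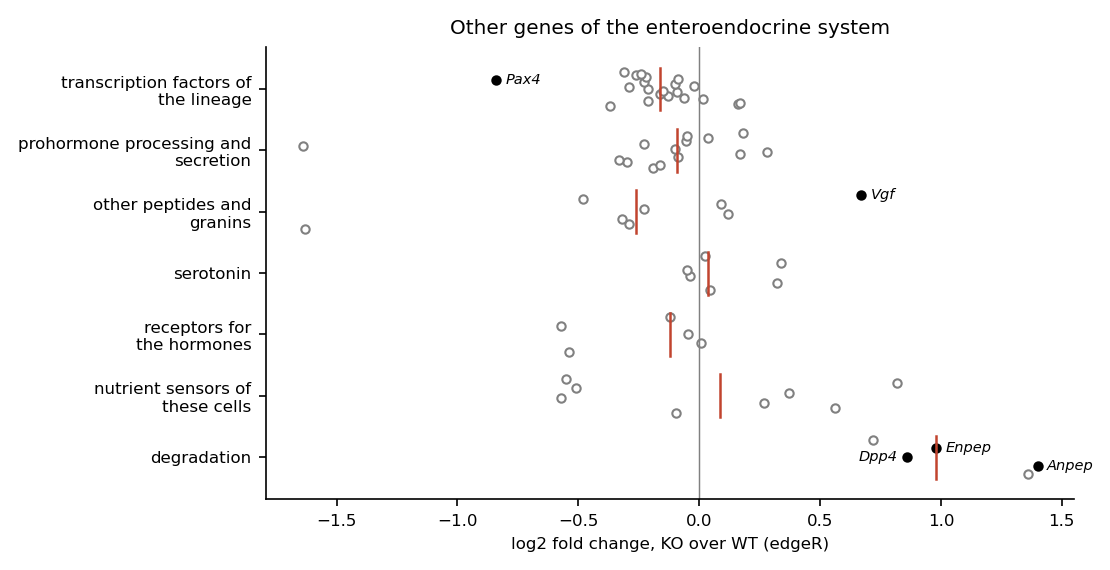
Log2 fold change of KO over WT (x axis) for each tested gene of 7 lists of the enteroendocrine system, with the list median as a red line and genes with an unadjusted p under 0.05 filled and named. Most transcription factors of the lineage lie left of 0, Pax4 being the filled one, and all 5 peptidases lie right of 0.

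MEX3 proteins bind a bipartite element in the 3′ untranslated region (3′UTR) of their target transcripts, a pair of 4-base parts with a gap of up to 8 bases, and the members were searched for it because the mice lack such a protein. In the longest coding transcript of GENCODE M21, 5 of the 10 members held at least 1 match, against 74.2% of 13003 tested genes that have a 3′UTR in the annotation. The members' 3′UTRs were short, with a median of 292.5 bases against 1107 over those genes. Nts had 3 matches in 575 bases, where 63.0% of tested genes of like length (from 0.8 to 1.25 times) held at least 1. Cck (350 bases, 45.4% of genes of like length), Gcg (448 bases, 53.1%) and Tac1 (545 bases, 62.1%) had 1 match each, and Sct had 2 overlapping matches in 79 bases (9.47%). Chga, Chgb, Gip, Sst and Pyy had none. All lie in the last exon, and those of Nts, the member with the most, and of Sct, the member with the shortest 3′UTR, are shown 5′ to 3′ with these parts in capitals.
Nts, chr10:102482028-102482040, minus strand: TTAGcacgtTATA
Nts, chr10:102482018-102482030, minus strand: ATAGgaaatTATA
Nts, chr10:102482008-102482017, minus strand: AGAGatTATA
Sct, chr7:141278393-141278408, minus strand: GGAGgaagagtcTCTA
Sct, chr7:141278393-141278402, minus strand: AGAGtcTCTA
The log2 fold changes of the 5 members with a match were 0.76 (Nts), 0.36 (Sct), -0.043 (Gcg), -0.13 (Tac1) and -0.22 (Cck), and those of the 5 without were 0.68 (Pyy), 0.023 (Chga), -0.12 (Chgb), -0.37 (Sst) and -0.49 (Gip). Members of both kinds thus lay on either side of 0, and a match in the letters is not evidence of binding.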

How the data were processed

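The members, lists and tests were chosen with earlier results of these data known. The authors deposited raw counts per gene for each mouse and FPKM values, which divide these counts by gene length and library total. The submitters' processing notes name CASAVA, HISAT2 2.0.5 and featureCounts 1.5.0-p3. The build is not given in the sources used here, and the deposited coordinates of all 10 members equal those of GENCODE M21 on GRCm38. No other annotated gene overlapped a member. The authors' own comparison (fold changes, p-values and group means) was not used.

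Counts were compared in edgeR 4.0.16 (R 4.3.3) with filterByExpr with a minimum count of 10, TMM factors, and the quasi-likelihood test of genotype over all 8 mice, with p-values adjusted by the Benjamini-Hochberg method over 16109 genes. CPM used TMM-scaled library sizes, and log2 CPM an offset of 0.5. Single members were also tested by a two-sided exact permutation test on CPM over the 70 assignments of the mice, whose smallest possible p is 0.0286. The fits were tested on simulated data. Nts and Pyy had the fewest counts of the members, 22 to 188 per mouse. Alternatives were DESeq2 1.42.0, RLE factors, no filter, limma 3.58.1 on log2(FPKM + 1) and log2(FPKM + 0.1), the replicate block, the Xist or Y group as a covariate and leaving out each mouse. Figures were drawn with matplotlib 3.10.9 in Python 3.11.15.

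Genes named are the members, Mex3a, genes of the related lists with an unadjusted p under 0.05 (or, with none, the 2 with the smallest p), and the 3 genes most correlated with Chga, Gip and Nts. Other genes given as region or cell markers, and Neurog3, Neurod1, Rfx6, Sox4 and Gast, were chosen after their values were seen. The controls are littermates and same-numbered mice share the Xist or Y group, but no source says that a number marks a litter. Deviations of same-numbered mice from the genotype means correlated at 0.134, 0.552, 0.136 and 0.321 over all genes tested (0.0896 to 0.540 for autosomal genes), so a blocked fit stands beside those results whose call it alters, while the main fit and the permutation test ignore the numbers. Libraries of the same genotype all differed by more than sampling noise. The mice are separate animals as the labels number them.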

Additional observations from a re-analysis of the deposited data

Results flagged for a closer look

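Within each genotype, a mouse far from the other 3 was looked for by the gap to its neighbour as a share of the group's range, and 3 of 22 groups passed the 95% critical value of Dixon's ratio, where chance gives about 1.1. Chga in KO had its highest value in KO replicate 3, with 95.5 CPM against 74.9 to 77.4 CPM in the other KO mice and a ratio of 0.880. Cck in WT had its highest value in WT replicate 2, with 30.9 CPM against 15.2 to 16.1 CPM and a ratio of 0.940. Tac1 in KO had its highest value in KO replicate 2, with 15.0 CPM against 12.3 to 12.6 CPM and a ratio of 0.889.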

How the results depend on the processing

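No member had an adjusted p under 0.05 in any of the 16 alternative fits (adjusted p 0.325 to 0.998). That includes DESeq2, which called 0.578% of all genes (93), against at most 0.0248% in the other alternatives. Mex3a, the deleted gene, had an adjusted p under 0.05 in 9 of the 16 fits. It was missed with the replicate block and without WT replicate 1 (0.151), 3 (0.214) or 4 (0.0857) or KO replicate 1 (0.152), 3 (0.077) or 4 (0.0748). In these edgeR fits its log2 fold change was -4.62 to -4.17. Of the 160 member log2 fold changes, 152 kept their direction. The others turned when 1 mouse was left out: Chga (range -0.12 to 0.20) turned to -0.12 without WT replicate 1, -0.090 without WT replicate 3 and -0.064 without KO replicate 3, Cck (-0.32 to 0.10) to 0.10 without WT replicate 2, Gcg (-0.17 to 0.10) to 0.10 without WT replicate 2, 0.069 without WT replicate 4 and 0.090 without KO replicate 1, and Tac1 (-0.27 to 0.020) to 0.020 without WT replicate 2. The number of members with an unadjusted p under 0.05 was 1 in the main comparison, 2 with DESeq2 (9.09% of all genes) and with no filter on low counts (6.43%; Sct and Gip in both), 3 with the replicate block (11.3%), and 0 to 2 when 1 mouse was left out (5.16% to 13.0%), with 0 without KO replicate 3 or KO replicate 4. The block by replicate number thus lost Sct and gained Gip, Sst and Nts at the unadjusted threshold, and took Mex3a to an adjusted p of 0.126. Among the genes of the related lists it lost Vgf and Pax4 and gained Slc6a4, Qpct, Gipr, Sox4, Slc5a1 and Gper1 at the unadjusted threshold, and it changed no other call of a gene in those lists. The shift of the distal minus proximal hormone difference was 0.26 to 0.73 when 1 mouse was left out. The standard errors of the members ranged from 0.16 to 0.50 on the log2 scale.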
